A study of Mus musculus with 2 samples.

Results

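The 8 calcium handling genes of the heart examined here were Cacna1c, Ryr2, Atp2a2, Pln, Sln, Casq2, Hrc and Slc8a1, taken by symbol from the 32285 genes of the deposited spatial count matrices. All 8 were found, and 7 of them reached 100 molecules (unique molecular identifiers, UMIs) in both sections together, with Sln as the exception. The 2 sections are transverse slices of C57BL/6 mouse hearts that had a myocardial infarction at postnatal day 2, made by tying off the left anterior descending artery, and were collected 7 days later. One section (PD1 Het) came from a heart heterozygous for the loss of PD1, an inhibitory receptor of T cells, and the other (PD1 KO) from a heart without it. Each genotype is 1 section, both hearts were infarcted, and neither an uninjured nor a wild-type section was analysed here. No difference between the genotypes could therefore be tested. The 95% intervals given cover counting error alone or, for shares of spots, the draw of spots within a section.

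Each heartbeat is driven by a cycle of calcium ions. The L-type channel lets calcium into the cardiomyocyte, which opens the ryanodine receptor and releases the store of the sarcoplasmic reticulum; the pump SERCA2 returns calcium to the store and the sodium-calcium exchanger carries the rest out of the cell. In rodents the pump does most of this removal, and immature cardiomyocytes lean more on the exchanger than adult ones do.

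The promoter stretches that RefSeq gives for Pln, Casq2 and Slc8a1 are shown so that they can be compared by their letters. Over spots ranked by the share of scar matrix genes, Pln and Casq2 followed each other (Pearson's r 0.96 in PD1 Het and 0.89 in PD1 KO). Slc8a1 followed Pln less (0.49 and 0.01). Over spots ranked by cardiomyocyte stress genes in PD1 KO, Pln fell and Casq2 rose. RefSeq (GRCm38.p6) had entries for 6 of the 8 members, with 8 promoters between them, and none for Atp2a2 and Sln. Each sequence is the 250 bases before the start site, 5′ to 3′ on the gene's strand, and capitals mark a match to AGATAA (the GATA factor letters, as TTATCT where it lies on the other strand) or to the MEF2 motif.
Pln, chr10:53337436-53337685, plus strand: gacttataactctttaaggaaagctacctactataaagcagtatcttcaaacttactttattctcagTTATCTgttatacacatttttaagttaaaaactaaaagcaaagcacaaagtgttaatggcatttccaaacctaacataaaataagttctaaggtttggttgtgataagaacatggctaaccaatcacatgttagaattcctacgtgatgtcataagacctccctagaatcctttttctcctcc
Casq2, chr3:102086165-102086414, plus strand: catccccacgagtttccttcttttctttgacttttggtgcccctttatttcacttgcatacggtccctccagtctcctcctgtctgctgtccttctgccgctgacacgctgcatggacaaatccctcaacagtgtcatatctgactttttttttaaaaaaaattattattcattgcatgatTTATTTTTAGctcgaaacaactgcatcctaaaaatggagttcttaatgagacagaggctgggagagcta
Slc8a1, chr17:81738388-81738637, minus strand: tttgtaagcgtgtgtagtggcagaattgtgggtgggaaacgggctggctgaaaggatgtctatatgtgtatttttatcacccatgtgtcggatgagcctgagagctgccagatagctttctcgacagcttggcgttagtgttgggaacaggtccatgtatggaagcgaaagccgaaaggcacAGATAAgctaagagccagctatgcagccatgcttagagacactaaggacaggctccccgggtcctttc
The match begins at position -183 from the start in Pln, -68 in Slc8a1 and -69 in Casq2. Of 32851 RefSeq promoters of this length, searched on both strands, 9.99% held AGATAA and 2.92% the MEF2 motif, against 2 and 1 of the 8 member promoters. The E-box letters CANNTG, which several muscle factors bind, were in 8 of 8 member promoters and in 66.2% of all promoters. The M-CAT letters CATTCC (12.6% of all) and the CArG motif (1.47%) matched in 0 of the 8. These are matches of letters in a short window, and Pln and Slc8a1 shared one while their levels followed different patterns.

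The PD1 Het section held 812 spots and the PD1 KO section 859, of which 811 and 851 had at least 500 UMIs and were kept. A spot is a small patch of tissue that can hold several cells, so fewer cardiomyocytes in a spot and less of a transcript in each cannot be told apart. The kept spots summed to 12814494 UMIs in PD1 Het and 23520499 in PD1 KO, with medians of 15475 and 27134 UMIs a spot. Mitochondrial genes took 25.6% of UMIs in PD1 Het and 15.9% in PD1 KO. Pdcd1, the gene of PD1, had 0 UMIs in both sections, which allows up to 0.234 CPM (counts scaled to 1e6 a section) in PD1 Het and 0.128 CPM in PD1 KO, so it could not check the labels. The hearts also differed in sex-linked transcripts: Xist had 541 UMIs in PD1 Het and 1 in PD1 KO, and 4 Y-linked genes together had 1 and 2900. Sex and genotype cannot be told apart here. The sections shared 225 spot barcodes (27.7% and 26.2% of their spots); in this assay a barcode marks a position on the slide and recurs between slides. The ventricular identity of the tissue was clear, with 10 sarcomere markers at 63371 CPM in PD1 Het and 64955 CPM in PD1 KO, while 5 atrial markers summed to 61.5 and 69.3 CPM, with the atrial light chain Myl7 at 16 and 31 UMIs.

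Together the members took 0.859% of UMIs in PD1 Het and 1.03% in PD1 KO. Because most genes had a higher CPM in PD1 KO, each ratio of PD1 KO over PD1 Het is given relative to the median gene, whose log2 CPM ratio was 0.33 over 11455 genes with at least 100 UMIs. On that scale 4 members were higher in PD1 KO (Cacna1c, Ryr2, Slc8a1 and Pln), 3 were lower (Hrc, Atp2a2 and Casq2), and no member reached a 1.5-fold difference. The background for that fold was 5.5% of genes above and 3.3% below. The median of the 7 members was 0.17 on the log2 scale, against 0 for all genes by construction, while the summed members, dominated by Atp2a2 and Pln, gave -0.07.

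Cacna1c encodes the pore of the L-type channel through which calcium enters. It had 1061 UMIs (82.8 CPM) in PD1 Het and 3034 UMIs (129 CPM) in PD1 KO. Its relative log2 ratio was 0.31 (95% interval 0.21 to 0.41), the highest among the 7 members, and its CPM was 1.56-fold higher in PD1 KO. By CPM, 22.5% of all genes were at least 1.5-fold higher in PD1 KO and 0.681% at least 1.5-fold lower; Cacna1c was the 1 member among the former and no member was among the latter.

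Ryr2, the release channel of the sarcoplasmic reticulum, stood at 255 CPM in PD1 Het (3273 UMIs) and 376 CPM in PD1 KO (8847 UMIs). The relative log2 ratio was 0.23 (0.17 to 0.29), so the channel of entry and the channel of release both lay on the higher side in PD1 KO.

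Atp2a2 encodes SERCA2, the pump that refills the store. Its level was 4646 CPM in PD1 Het (59533 UMIs) and 5019 CPM in PD1 KO (118039 UMIs). Relative to the median gene it was lower in PD1 KO, with a log2 ratio of -0.22 (-0.23 to -0.21); by CPM it was 0.11 higher, so its direction depends on the scale. Pln encodes phospholamban, the small membrane protein that restrains the pump until it is phosphorylated. It stood at 2526 CPM in PD1 Het (32371 UMIs) and 3587 CPM in PD1 KO (84371 UMIs), a relative log2 ratio of 0.17 (0.16 to 0.19). Pln was counted 0.544 times for each Atp2a2 UMI in PD1 Het and 0.715 times in PD1 KO, 1.31-fold more (1.29 to 1.34). This ratio of the pump's inhibitor to the pump needs no scaling between sections, but counts of unlike transcripts say nothing of the ratio of their proteins. Pln exons overlap Cep85l (118 UMIs in PD1 Het and 279 in PD1 KO) and Gm47644 (45 and 50) on the other strand, and whether counting used strand is not given in the sources used here.

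Sln encodes sarcolipin, the atrial and skeletal muscle relative of phospholamban. It was seen in 1 UMI in PD1 Het and 4 in PD1 KO, or 0.0780 and 0.170 CPM, a ratio of 2.18 with an interval from 0.216 to 107. That interval covers both directions. Each UMI lay in a different spot, so 1 of 811 spots (0.123%) and 4 of 851 spots (0.470%) held one. Among the atrial markers, Bmp10 was at 0 in both sections and Myl7 at 1.25 CPM in PD1 Het and 1.32 in PD1 KO. The others stood well above Sln: Dkk3 at 28.0 and 36.9 CPM, Myl4 at 16.2 and 23.1, and Stard10 at 16.1 and 8.04.

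Casq2, the calsequestrin that binds calcium inside the store, had 619 CPM in PD1 Het (7932 UMIs) and 677 CPM in PD1 KO (15919 UMIs). Its relative log2 ratio was -0.20 (-0.24 to -0.16), and it too was higher by CPM, by 0.13. Hrc, the histidine-rich calcium-binding protein of the same compartment, had 264 CPM in PD1 Het (3383 UMIs) and 258 CPM in PD1 KO (6068 UMIs). With -0.36 (-0.43 to -0.30) it had the lowest relative log2 ratio of the members, and it alone among the 7 was also lower by CPM, at -0.03. The CPM interval of Hrc, 0.937- to 1.02-fold, includes no difference.

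Slc8a1, the sodium-calcium exchanger NCX1 that carries calcium out of the cell, stood at 196 CPM in PD1 Het (2515 UMIs) and 285 CPM in PD1 KO (6709 UMIs). Its relative log2 ratio was 0.21 (0.14 to 0.27). For each Slc8a1 UMI there were 23.7 Atp2a2 UMIs in PD1 Het and 17.6 in PD1 KO, a fold of 0.743 (0.709 to 0.779). The pump was thus counted less often for each count of the exchanger in the PD1 KO section.

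**Figure D1:**
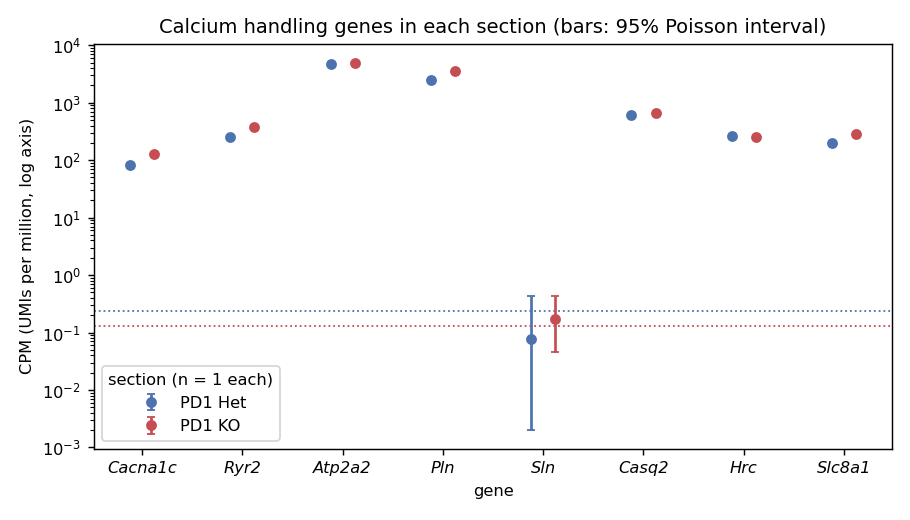
Level of each calcium handling gene in the PD1 Het and PD1 KO sections, in CPM on a log axis, with 95% counting intervals and 1 section a genotype. Dotted lines mark the level that 3 counts would give; Sln, at 0.0780 and 0.170 CPM, lies beside them and the other members far above.

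Transcript length moved with these ratios. Genes were divided into 5 classes of 2290 by the length of their longest transcript in the GENCODE vM21 annotation (GRCm38). The median relative log2 ratio was -0.15 in the shortest class and 0.11 in the longest. Ryr2, Slc8a1, Cacna1c and Atp2a2 are in the longest class, and of these Atp2a2 was the member with a negative ratio. Pln, Casq2 and Hrc are in the second class, with a median of -0.04, and Pln was the one above it. The part of length in the differences was not tested.

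To set the members against cardiomyocyte content, their UMIs were divided by the UMIs of the 10 sarcomere markers. Ryr2 was at 4.03 UMIs per 1000 sarcomere UMIs in PD1 Het and 5.79 in PD1 KO, a log2 ratio of 0.52. Pln was at 39.9 and 55.2 (0.47), Slc8a1 at 3.10 and 4.39 (0.50), and Cacna1c at 1.31 and 1.99 (0.60). These same 4 genes were the ones above the median gene. Dividing by the same sum shifts the log2 ratio of every member equally, so the order of the members could not differ. Atp2a2 was at 73.3 and 77.3 (0.08), Casq2 at 9.77 and 10.4 (0.09), and Hrc at 4.17 and 3.97 (-0.07), all close to the sarcomere markers themselves. The choice of reference matters: against titin (Ttn) alone, which was higher in PD1 KO, the median of the 7 members went from 0.47 to -0.080.

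The members were then followed across each section by ranking its spots by the share of UMIs from 18 scar matrix genes, such as collagens, periostin and fibronectin, and dividing them into 5 bins of 162 or 163 spots in PD1 Het and 170 or 171 in PD1 KO. The matrix genes went from 3480 CPM in the lowest bin to 16354 CPM in the highest in PD1 Het, and from 4637 to 24931 CPM in PD1 KO. No member is in the matrix list. Mitochondrial UMIs moved with the ranking, from 29.9% to 18.6% in PD1 Het and from 18.7% to 11.7% in PD1 KO. Smooth muscle markers moved too. Acta2 is in both that list and the matrix list. The other 5 markers went from 242 to 431 CPM in PD1 Het and from 288 to 504 CPM in PD1 KO. Most of their UMIs came from Smtn (2750 over all spots of PD1 Het and 5129 of PD1 KO), while Myh11 had 243 and 502.

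In PD1 Het all 7 members had a lower CPM in the highest bin than in the lowest, against 20.2% of all genes, and in PD1 KO 6 of 7 did, against 23.7%. The log2 ratio of highest over lowest bin had a median over the members of -0.24 in PD1 Het and -0.51 in PD1 KO. The median of all genes was 0.39 and 0.29, and that of the sarcomere markers -0.27 and -0.43. No member was 1.5-fold higher in the highest bin of either section, against 36% of all genes in PD1 Het and 26.4% in PD1 KO. A 1.5-fold lower level was reached by 0 members in PD1 Het (background 2.75%) and by 1, Hrc, in PD1 KO (background 3.22%). These figures depend on the bins and the total: with 10 bins the medians were -0.52 and -0.85, with 2 members (Atp2a2 and Ryr2) and 4 members (those and Hrc and Pln) at least 1.5-fold lower. Without mitochondrial genes the PD1 Het median was -0.46, and 1 member (Ryr2) and the same 4 reached that fold. With 4 bins none did in either section. The shares of all genes at these other settings were not computed, so these counts cannot be set against a background. For most members the drop lay mainly between the fourth and the highest bin.

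Atp2a2 went 4736, 4977, 4809, 4723 and 3845 CPM over the 5 bins in PD1 Het, and 5480, 5353, 5248, 5007 and 3673 CPM in PD1 KO. The highest-over-lowest log2 ratio of the pump was -0.30 (-0.34 to -0.26) and -0.58 (-0.61 to -0.55). Pln followed it, at 2611, 2673, 2556, 2524 and 2207 CPM in PD1 Het and 3875, 3734, 3782, 3640 and 2691 CPM in PD1 KO. Its log2 ratios were -0.24 (-0.30 to -0.19) and -0.53 (-0.56 to -0.49). Pump and inhibitor kept nearly the same proportion across a section: Pln per Atp2a2 went from 0.551 to 0.574 in PD1 Het, a fold of 1.04 (0.995 to 1.09), and from 0.707 to 0.733 in PD1 KO, also 1.04 (1.004 to 1.07). The difference between the sections in this ratio was present in the lowest bin already.

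Ryr2 went 272, 281, 268, 245 and 199 CPM in PD1 Het and 406, 410, 392, 365 and 285 CPM in PD1 KO, with log2 ratios of -0.45 (-0.62 to -0.28) and -0.51 (-0.62 to -0.41). Hrc went 285, 276, 271, 258 and 221 CPM in PD1 Het and 291, 271, 267, 256 and 187 CPM in PD1 KO, with log2 ratios of -0.37 (-0.53 to -0.20) and -0.64 (-0.77 to -0.51). Both ratios lay below those of the sarcomere markers in each section, although per sarcomere UMI the intervals of Ryr2 in PD1 KO (-0.19 to 0.03) and Hrc in PD1 Het (-0.26 to 0.07) include no difference. Cacna1c, the least counted of the 7, went 75.1, 92.4, 85.1, 86.4 and 73.7 CPM in PD1 Het, where its ratio of -0.03 (-0.33 to 0.28) shows no direction. In PD1 KO it was at 135, 133, 126, 135 and 113 CPM, a ratio of -0.26 (-0.43 to -0.08).

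Casq2 stayed nearly level until the highest bin, at 630, 641, 635, 633 and 543 CPM in PD1 Het and 685, 680, 684, 705 and 618 CPM in PD1 KO. Its log2 ratios were -0.22 (-0.32 to -0.11) and -0.15 (-0.23 to -0.07), the latter the smallest drop of the 6 members that were lower in PD1 KO. Slc8a1 was the exception to the shared direction. In PD1 Het it went 202, 189, 207, 204 and 177 CPM, a log2 ratio of -0.19 (-0.38 to 0.003), but in PD1 KO it went 271, 280, 272, 311 and 297 CPM, a ratio of 0.13 (0.02 to 0.24). With spots thinned to 10000 UMIs the PD1 Het ratio was 0.02, so its sign there depends on how spots are weighted. In PD1 KO the exchanger had a higher CPM in the matrix-richest spots, where the sarcomere markers had a lower one. Without mitochondrial genes its PD1 KO ratio was 0.01.

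**Figure D2:**
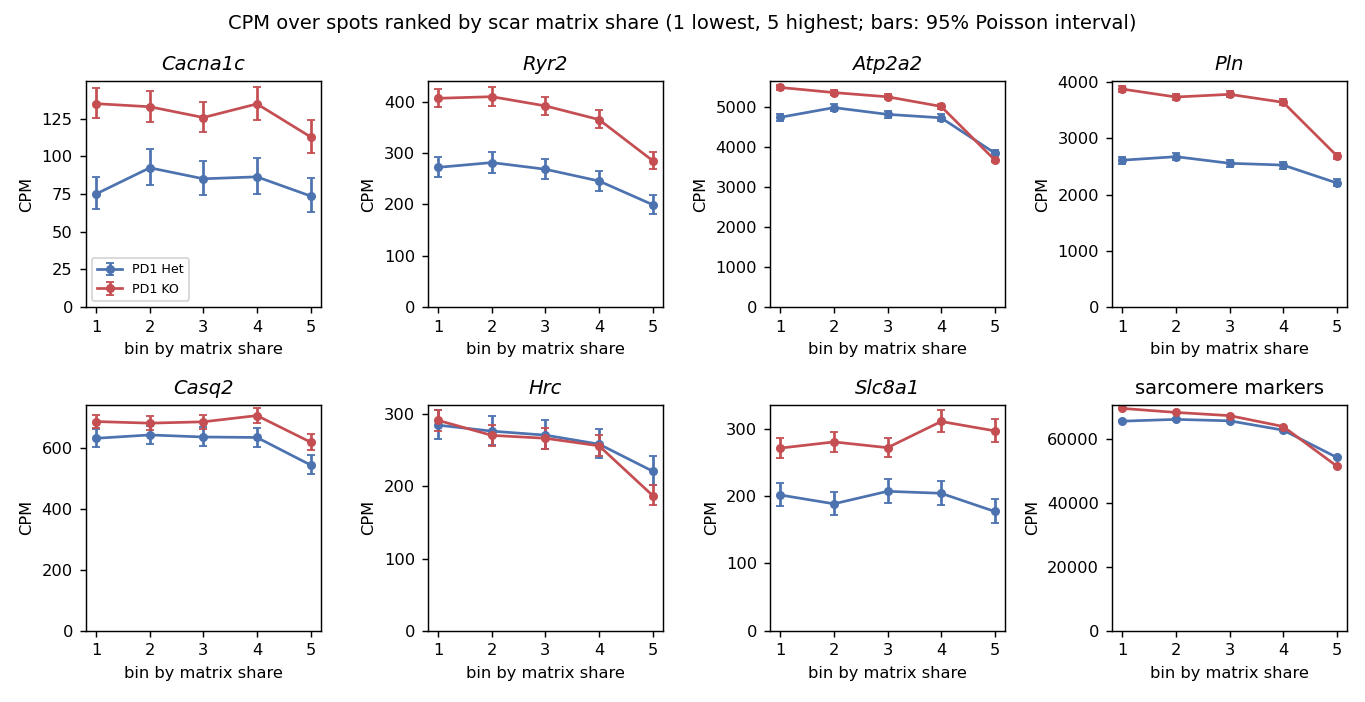
CPM of the 7 members and of the summed sarcomere markers over 5 bins of spots ranked by matrix share, from lowest to highest, in both sections. Bars are 95% counting intervals; in PD1 KO Slc8a1 is at 271 CPM in the lowest and 297 CPM in the highest bin, while Atp2a2 is at 5480 and 3673 CPM.

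Per 1000 sarcomere UMIs, Slc8a1 was at 3.07 in the lowest and 3.26 in the highest matrix bin of PD1 Het, and at 3.89 and 5.75 in those of PD1 KO. The PD1 KO log2 ratio was 0.56 (0.45 to 0.68), against 0.09 (-0.10 to 0.28) in PD1 Het. Casq2 per sarcomere UMI had a log2 ratio of 0.28 (0.21 to 0.36) in PD1 KO and 0.06 (-0.05 to 0.17) in PD1 Het. Atp2a2 was lower on this measure in PD1 KO, at -0.14 (-0.17 to -0.11), and close to level in PD1 Het, at -0.03 (-0.07 to 0.01). Atp2a2 UMIs per Slc8a1 UMI went from 23.5 to 21.7 in PD1 Het, a fold of 0.924 (0.809 to 1.05), and from 20.2 to 12.4 in PD1 KO, a fold of 0.613 (0.565 to 0.664). Smooth muscle cells can also express the exchanger, and their 5 markers other than Acta2 were higher in the highest bin in both sections, with log2 ratios of 0.83 in PD1 Het and 0.81 in PD1 KO; their part in the Slc8a1 values was not tested.

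The genotypes could also be compared bin by bin, by rank within each section and not at equal matrix content. In the lowest and in the highest bin the matrix genes had a higher CPM in PD1 KO than in PD1 Het. Each ratio of PD1 KO over PD1 Het is here relative to the median gene of the same bin, whose log2 CPM ratio was 0.36 in the lowest matrix bin and 0.25 in the highest. Slc8a1 was at 0.07 (-0.07 to 0.22) in the lowest bin and 0.50 (0.33 to 0.67) in the highest. Pln was at 0.21 (0.17 to 0.25) and 0.04 (-0.01 to 0.09), and Atp2a2 at -0.15 (-0.18 to -0.12) and -0.31 (-0.35 to -0.27). Hrc was at -0.32 and -0.49, below the median gene in both bins. Cacna1c was at 0.49 (0.26 to 0.72) in the lowest bin and 0.37 (0.11 to 0.64) in the highest. Nppa, a hallmark of stressed cardiomyocytes, was at 91.5 and 1146 CPM in the lowest and highest bins of PD1 Het and at 170 and 9256 CPM in those of PD1 KO, so stress transcripts also differed between the highest bins of the 2 sections.

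Spots were also ranked by the share of 8 fetal and stress cardiomyocyte genes (Nppa, Nppb, Myh7, Acta1, Ankrd1, Xirp2, Actn1 and Des). This ranking was chosen after the values by matrix share had been seen. It is not alike in the 2 sections: the CPM of these genes rose 4.60-fold from lowest to highest bin in PD1 Het and 11.5-fold in PD1 KO. Des gave 9898 of their 24655 UMIs in PD1 Het and Nppa 4583. In PD1 KO Nppa gave 48913 of 100561 and Des 17384. Sarcomere markers were nearly level on this ranking, with log2 ratios of highest over lowest bin of 0.06 in PD1 Het and -0.10 in PD1 KO. Slc8a1 in PD1 KO was at 255, 262, 279, 297 and 342 CPM from the lowest to the highest bin, a log2 ratio of 0.42 (0.31 to 0.53). In PD1 Het it was at 183, 189, 214, 194 and 202 CPM, a ratio of 0.14 (-0.05 to 0.33). The 5 smooth muscle markers other than Acta2 were at 343 and 378 CPM in the lowest and highest stress bins of PD1 KO and at 254 and 355 CPM in those of PD1 Het, and their part was not tested.

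Casq2 was also higher in the highest stress bin of PD1 KO, with 627 CPM in the lowest and 714 CPM in the highest bin and a log2 ratio of 0.19 (0.11 to 0.26), while PD1 Het gave -0.06 (-0.16 to 0.05). Atp2a2 had -0.26 (-0.30 to -0.22) in PD1 Het and -0.41 (-0.44 to -0.38) in PD1 KO, and Pln -0.28 (-0.34 to -0.23) and -0.31 (-0.35 to -0.28). In PD1 Het 6 of 7 members were lower in the highest stress bin (background 33.3%) and in PD1 KO 5 of 7 (background 26.4%); Slc8a1 was the exception in both and Casq2 in PD1 KO. No member was 1.5-fold lower there in either section, against 5.35% of all genes in PD1 Het and 2.61% in PD1 KO. Per sarcomere UMI in PD1 KO, Slc8a1 was 0.52 (0.41 to 0.63) and Casq2 0.28 (0.21 to 0.36) higher on the log2 scale, and Atp2a2 was at -0.31 (-0.34 to -0.28). In PD1 Het the pump was at -0.32 (-0.36 to -0.29), about as low, and Slc8a1 at 0.07 (-0.11 to 0.26). The ratio of Atp2a2 to Slc8a1 went from 26.4 to 20.1 in PD1 Het, a fold of 0.758 (0.665 to 0.864), and from 20.9 to 11.7 in PD1 KO, a fold of 0.561 (0.519 to 0.607).

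**Figure D3:**
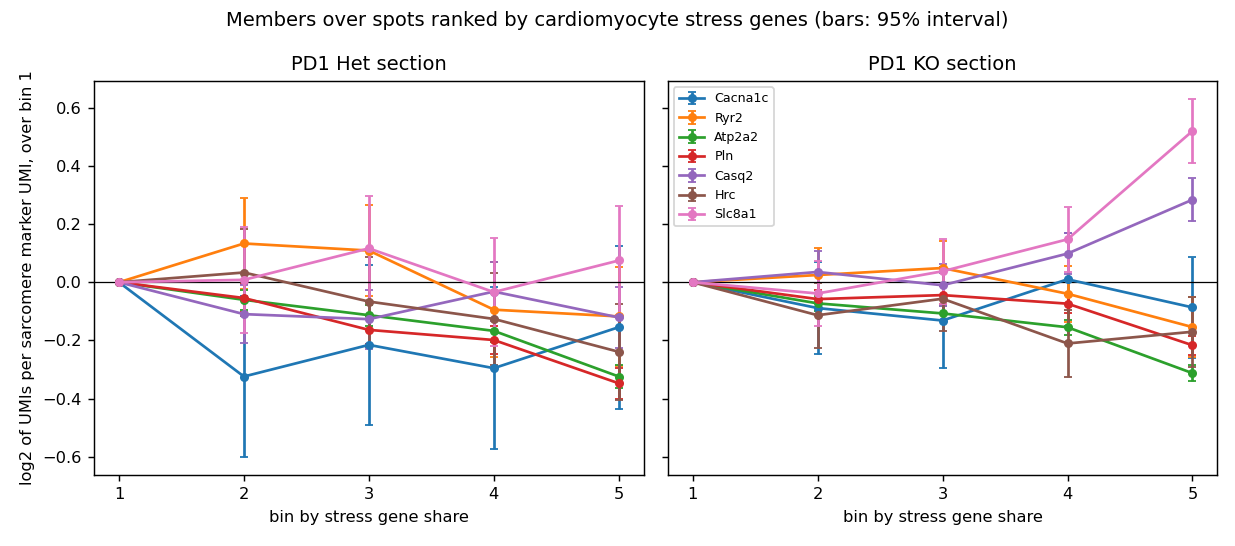
Log2 level of each member per sarcomere marker UMI relative to the lowest bin, over 5 bins of spots ranked by the share of fetal and stress cardiomyocyte genes, in each section. In the highest PD1 KO bin Slc8a1 reaches 0.52 and Casq2 0.28, while Atp2a2 lies at -0.31.

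**Figure D4:**
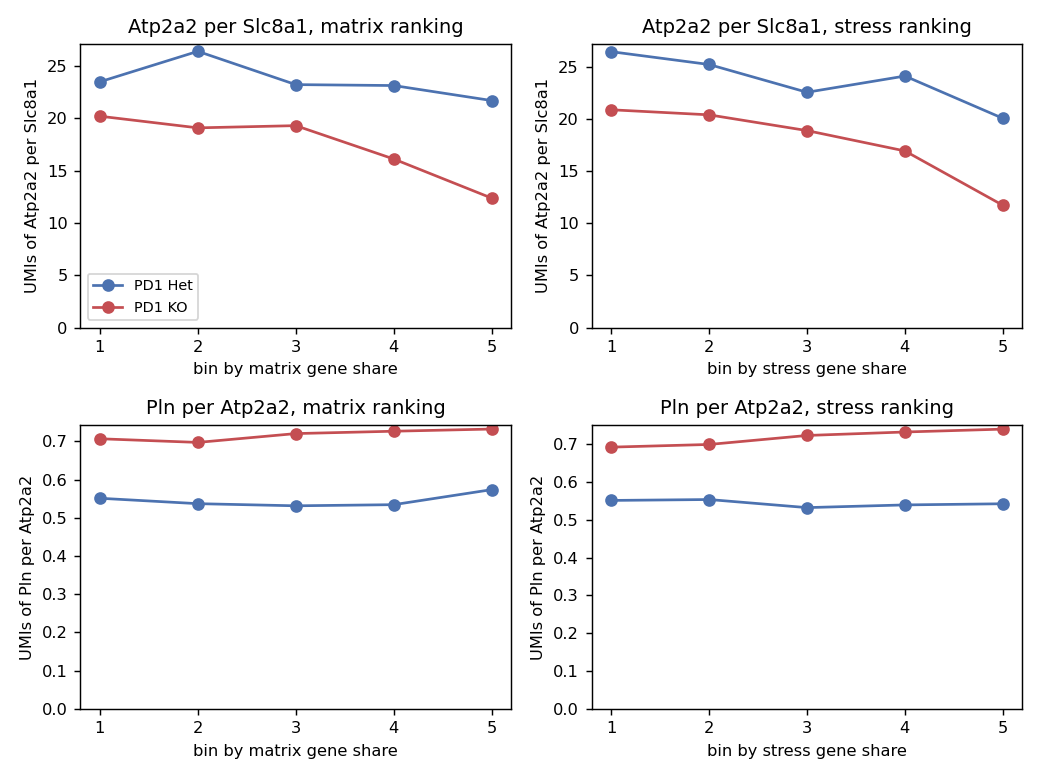
Ratio of UMIs of Atp2a2 to Slc8a1 and of Pln to Atp2a2 over the matrix and the stress rankings, lowest to highest bin, drawn without intervals. Atp2a2 per Slc8a1 ends at 12.4 (matrix) and 11.7 (stress) in PD1 KO, below every other bin, whereas Pln per Atp2a2 separates the sections in all bins.

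At the level of single spots, each spot was thinned to 10000 UMIs, which left 759 spots in PD1 Het and 839 in PD1 KO. Atp2a2 was found in 100% of spots of both sections, Pln in 100% and 99.9%, and Casq2 in 99.3% and 99.8%. Cacna1c was found in 58.2% of spots (54.6 to 61.8, Clopper-Pearson) of the PD1 Het section and in 70.1% (66.9 to 73.2) for PD1 KO. These intervals take the spots of a section as independent draws. Spots are not replicates of a genotype, so the intervals do not compare the genotypes. Without thinning the shares were 70.3% and 94.5%. Slc8a1 was in 84.2% and 93.7%, Ryr2 in 90.5% and 96.7%, and Hrc in 92.1% and 90.8%. The variance of thinned counts beyond counting, divided by the squared mean so that genes of unlike count can be set side by side, lay between 0.022 (Pln) and 0.069 (Ryr2) for the 7 members in PD1 Het. In PD1 KO it lay between 0.013 (Casq2) and 0.096 (Cacna1c), with Atp2a2 at 0.051 and Pln at 0.045. For comparison, Nppa was at 9.66 and 8.81, so the members were spread far more evenly over the spots than this stress gene.

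Genes outside the 8 that serve the same cycle were taken from 6 lists of 73 genes, of which 71 were in the matrices and 60 had at least 100 UMIs. Relative to the median gene, 28 were higher and 32 lower in PD1 KO, with a median of -0.01. Of the 60, 4 were at least 1.5-fold above (Jph1, Casq1, Micu3 and Mcu) and 1 at least 1.5-fold below (Jph2). Over all genes the shares were 5.5% above and 3.3% below, so these counts lie near the background. Jph2, the junctophilin that holds the calcium channel close to the release channel, was at 292 CPM in PD1 Het and 210 CPM in PD1 KO, a relative log2 ratio of -0.80 (-0.86 to -0.74). Jph1, its skeletal relative, had 46 and 162 UMIs and a ratio of 0.61 (0.13 to 1.11). In this list of 17 release unit and junction genes, 6 were higher and 11 lower, including the titin cap Tcap at -0.56 (-0.60 to -0.52). S100a1, a calcium sensor that binds the release channel and the pump, was at 0.15 (0.10 to 0.19).

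Among 7 pump regulators and luminal proteins with enough UMIs, 3 were higher and 4 lower. Casq1, the skeletal muscle calsequestrin, was at 12.6 CPM in PD1 Het (162 UMIs) and 29.4 CPM in PD1 KO (691 UMIs), a relative log2 ratio of 0.89 (0.64 to 1.14), unlike its cardiac relative Casq2. The 9 skeletal muscle markers summed to 2054 CPM in PD1 Het and 2003 CPM in PD1 KO. Nearly all came from Ckm (26253 and 46976 UMIs), which cardiac muscle also expresses. The skeletal myosins Myh2 and Myh4 were at 0 in both sections, and Myh1 was at 0 and 3 UMIs. Of the rest, Tnni2 had 43 and 60 UMIs, Tnnt3 15 and 31, Mylpf 14 and 28, Actn3 2 and 6, and Pvalb 0 and 3. Sarcalumenin (Srl) was at -0.47 (-0.51 to -0.42) and calreticulin (Calr) at -0.28 (-0.34 to -0.23). Myoregulin (Mrln), with 19 and 24 UMIs and so not among the 7, was at -0.87 (-1.80 to 0.08), an interval that includes no difference.

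Of the 8 genes listed as L-type channel subunits and regulators, 4 were higher and 4 lower and none passed 1.5-fold. That list also holds the T-type channels Cacna1g and Cacna1h, both among the higher. The auxiliary subunits went both ways. Cacna2d1, at 0.39 (0.24 to 0.53), and Cacnb2, at 0.23 (0.07 to 0.38), lay on the same side as Cacna1c. Cacnb3, at -0.38 (-0.63 to -0.13), lay on the other, and Cacnb1 was at -0.13 (-0.50 to 0.26). Cacna1h, a T-type channel, was at 0.42 (0.03 to 0.83). The channel inhibitor Rrad was at -0.09 (-0.16 to -0.03) and the scaffold Ahnak at -0.16 (-0.22 to -0.10). Of 8 extrusion genes and other calcium channels with at least 100 UMIs, 3 were higher and 5 lower. Itpr1 was at -0.27 (-0.44 to -0.09), Itpr3 at -0.52 (-0.85 to -0.19) and the plasma membrane pump Atp2b1 at 0.01 (-0.17 to 0.20). Ryr3, with 7 and 27 UMIs and so not among the 8, was at 0.74 (-0.50 to 2.18).

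Of 12 kinases and phosphatases of calcium signalling, 8 were higher and 4 lower, with a median of 0.10. Prkar1a, a regulatory subunit of protein kinase A, was at 0.22 (0.16 to 0.27) and Pde4dip at 0.11 (0.05 to 0.16). Rcan1, the calcineurin regulator, was at -0.42 (-0.56 to -0.29). Pde4d, with 41 and 56 UMIs and so not among the 12, was at -0.76 (-1.36 to -0.14). Of 8 mitochondrial calcium genes 4 were higher and 4 lower. The uniporter pore Mcu was at 0.66 (0.37 to 0.96) and its regulator Micu3 at 0.87 (0.30 to 1.47), while the uniporter subunit Smdt1 was at -0.36 (-0.41 to -0.30) and the outer membrane channel Vdac1 at 0.05 (0.001 to 0.09).

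**Figure D5:**
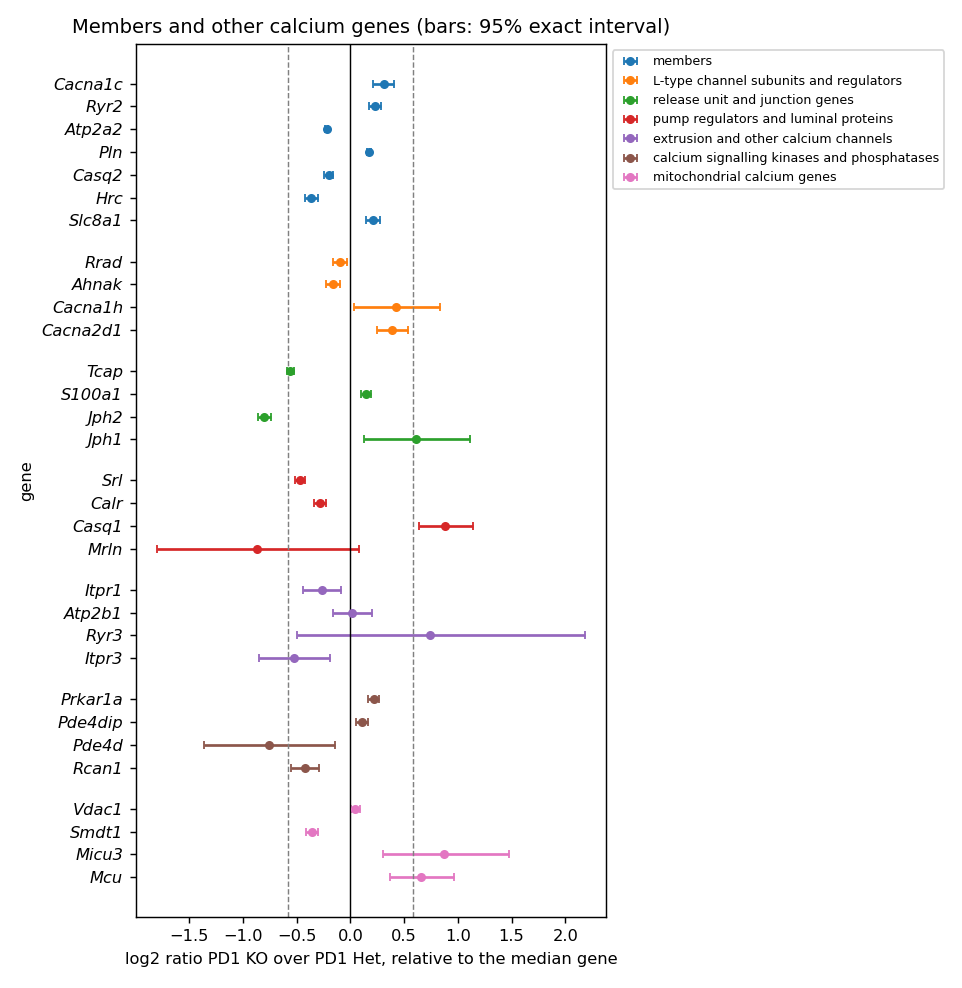
Log2 ratio of PD1 KO over PD1 Het relative to the median gene for the 7 members with at least 100 UMIs and the named genes of the 6 other calcium lists, coloured by list, with 95% counting intervals. Dashed lines mark a 1.5-fold difference; all 7 members lie between them, from Hrc (-0.36) to Cacna1c (0.31), while Jph2 (-0.80) and Casq1 (0.89) lie outside.

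Likeness of pattern was described by Pearson's r over 20 matrix-ranked bins a section, averaged over the sections, among 4468 genes with at least 1000 UMIs; bins of a section share a library and depth. The genes most like Atp2a2 were Myh6 (0.99), Atp5a1 (0.99) and Atp5b (0.98), and those most like Pln were Atp2a2 (0.98), Ndufab1 (0.97) and Myh6 (0.97). Ryr2 was most like Ckmt2 (0.94), Cox6c (0.94) and Cox6b1 (0.93), Casq2 most like Pln (0.93), Ndufab1 (0.91) and Fhl2 (0.91), and Hrc most like Ldhb (0.94), Mlf1 (0.93) and Pln (0.93). Cacna1c and Slc8a1 had looser companions, with Cacna1c nearest to Ndufs4 (0.71), Fbxo9 (0.67) and Lgals4 (0.66), and Slc8a1 to Btnl9 (0.58), Tmem245 (0.57) and Perp (0.55). Between Slc8a1 and the other 6 members r ran from 0.21 to 0.65 in PD1 Het and from -0.09 to 0.17 in PD1 KO. Atp2a2 and Pln, at the other end, had r of 0.96 in PD1 Het and 0.99 in PD1 KO.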

How the data were processed

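Spatial transcriptomes of 1 PD1 Het and 1 PD1 KO heart section were analysed as deposited. The matrices hold UMI counts per gene and spot which the authors made (Space Ranger 1.1.0 per the file headers) on mm10 (GRCm38), per the submitters' processing notes; aligner settings, annotation release and strand use were not given in the sources used here. Spots with at least 500 UMIs were summed by section and by bin with Python 3.11.15, numpy 2.4.6, scipy 1.17.1 and pandas 2.3.3; figures used matplotlib 3.10.9. Intervals at 95% are exact Poisson for sums, exact Clopper-Pearson for shares, exact conditional for ratios of a gene and on the log scale from 4 counts for ratios of a pair; per sarcomere UMI, the marker sum is taken as fixed. UMIs are counted molecules, but intervals cover counting error only, and those for shares take the spots of a section as independent. With 1 section a group no test was made; a 1.5-fold difference stands in for a call. The ratio script was tested on simulated counts. Alternatives were CPM, edgeR 4.0.16 TMM and median-of-ratios scaling (R 4.3.3), other filters, bins, matrix and sarcomere lists, thinning and leaving out mitochondrial genes or the richest spot.

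All members are named. Of each other calcium list, up to 4 genes with at least 30 UMIs were chosen (2 by highest UMI sum and 2 by largest absolute ratio). Cacna1g and the Cacnb subunits are named besides. For each member the 3 genes most like it are named, leaving out mitochondrial and ribosomal protein genes. The likeness uses log2(CPM + 1). The members and lists were chosen with earlier results of these data known. Of the gene identifiers, 32158 of 32285 were found in GENCODE vM21.

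The members' genes lie at chr6:118587240-119196418 (Cacna1c, minus strand, ENSMUSG00000051331), chr13:11553102-12106945 (Ryr2, minus, ENSMUSG00000021313), chr5:122453513-122502225 (Atp2a2, minus, ENSMUSG00000029467), chr10:53337667-53345987 (Pln, plus, ENSMUSG00000038583), chr9:53850164-53854560 (Sln, plus, ENSMUSG00000042045), chr3:102086415-102146514 (Casq2, plus, ENSMUSG00000027861), chr7:45335290-45338974 (Hrc, plus, ENSMUSG00000038239) and chr17:81373105-81738377 (Slc8a1, minus, ENSMUSG00000054640), in GRCm38 and counted from 1.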

Additional observations from a re-analysis of the deposited data

Results flagged for a closer look

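Slc8a1 moved in opposite directions in the 2 sections when the matrix-richest bin was set against the matrix-poorest: its log2 CPM ratio was 0.13 in PD1 KO and -0.19 in PD1 Het. The difference was not tested, since each genotype is 1 section, and the PD1 Het interval (-0.38 to 0.003) includes no difference. With each spot thinned to 10000 UMIs the PD1 Het value was 0.02, the same sign as in PD1 KO, and by the stress ranking it was 0.14. Without mitochondrial genes the PD1 KO value was 0.01 and the PD1 Het value -0.40. In the main contrast the median of all genes was 0.29 in PD1 KO and 0.39 in PD1 Het, above Slc8a1 in both.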

How the results depend on the processing

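Scaling and the spots used set the size of the members' differences between the sections. Their median log2 ratio, 0.17 relative to the median gene, was 0.51 by CPM, 0.20 with TMM, 0.20 with median-of-ratios factors and 0.10 in the lowest matrix bin alone. By CPM 1 member, Cacna1c, passed 1.5-fold in place of 0, and Atp2a2 (0.11) and Casq2 (0.13) changed sign. The median of lowest over highest matrix bin, 0.24 in PD1 Het and 0.51 in PD1 KO, was 0.52 and 0.85 with 10 bins and 0.46 and 0.63 without mitochondrial genes. The median per sarcomere UMI, 0.47, was -0.080 against Ttn alone, 0.34 against Actn2 and Mybpc3, and 0.34 in the lowest matrix bin; against Ttn alone, Cacna1c was the 1 member that stayed positive. Slc8a1, highest over lowest matrix bin, was positive in PD1 KO under all 8 alternatives (0.01 without mitochondrial genes to 0.42 by the stress ranking, which was added after seeing the data). In PD1 Het it was 0.02 after thinning and 0.14 by the stress ranking. Of the recomputed values that answer a comparison, 36 stayed within the counting interval of the value reported (counts of genes within 1.5 times) and 12 moved; of those for single members, 146 stayed and 78 moved. Depth left Sln without a usable ratio and the Cacna1c and Slc8a1 bins with wide intervals in PD1 Het. No paired analysis was possible because each genotype is 1 section.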
